A study of Mus musculus with 19 samples.

Results

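The knockout of Mpc1 in the adult mouse heart was followed over 2 intervals, and for each gene the knockout effect at 16 weeks was set against the effect at 8 weeks. All 19 of the 19 ventricular libraries of the study were used. The wild-type groups were WT-8 (5 libraries) and WT-16 (5), and the groups labelled MPC1 knockout were KO-8 (4) and KO-16 (5), sampled 8 or 16 weeks after the knockout was induced. The series title calls the model an inducible heart-specific knockdown in adult mice. The labels name no strain, age, sex, driver or inducing agent, and they give no separate treatment for the wild types. An effect is the log2 fold change of KO against WT within 1 time, and the difference of effects is the 16-week effect minus the 8-week effect. The 8-week libraries were counted from 1 file each and the 16-week libraries from 2, and the 16-week files carry other run labels, so levels at the 2 times cannot be told apart from the sequencing and a change of level from 8 to 16 weeks is given only as a description. Whether wild types received the inducing agent is not given.

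Mpc1 and Mpc2 encode the 2 subunits of the mitochondrial pyruvate carrier, which lets pyruvate made in the cytosol enter mitochondria, where it feeds the tricarboxylic acid cycle. Heart muscle draws most of its energy from fatty acids and the rest from glucose, lactate, ketone bodies and amino acids. A stressed ventricle is known for the return of fetal genes such as the natriuretic peptides Nppa and Nppb, skeletal alpha-actin (Acta1) and beta-myosin heavy chain (Myh7), for lower expression of oxidation genes, and for matrix laid down by activated fibroblasts.

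Promoters are shown for 4 genes that were higher in KO-16 and whose upstream bases hold a muscle-type motif: Acta1, Ankrd1 and Thbs4 rose at both times, and Nppb rose at 16 weeks alone. Each is the 250 bases before the annotated start on GRCm38.p6 (RefSeq), 5′ to 3′ on the gene's strand: Acta1 at chr8:123894776-123895025 (minus strand), Ankrd1 at chr19:36119845-36120094 (minus), Thbs4 at chr13:92794819-92795068 (minus) and Nppb at chr4:147985650-147985899 (plus). Capitals mark the MCAT motif (CATTCC, or GGAATG on the other strand), the known recognition sequence of TEAD factors, and in Acta1 also 1 CArG box, the recognition sequence of serum response factor.
Acta1: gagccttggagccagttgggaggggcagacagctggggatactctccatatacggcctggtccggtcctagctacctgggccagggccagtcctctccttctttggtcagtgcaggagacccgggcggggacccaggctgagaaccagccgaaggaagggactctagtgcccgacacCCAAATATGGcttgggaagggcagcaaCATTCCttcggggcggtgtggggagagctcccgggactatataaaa
Ankrd1: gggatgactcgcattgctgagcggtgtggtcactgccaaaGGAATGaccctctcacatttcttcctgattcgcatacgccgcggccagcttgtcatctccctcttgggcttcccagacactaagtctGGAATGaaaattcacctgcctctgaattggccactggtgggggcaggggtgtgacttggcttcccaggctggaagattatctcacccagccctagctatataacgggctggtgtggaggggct
Thbs4: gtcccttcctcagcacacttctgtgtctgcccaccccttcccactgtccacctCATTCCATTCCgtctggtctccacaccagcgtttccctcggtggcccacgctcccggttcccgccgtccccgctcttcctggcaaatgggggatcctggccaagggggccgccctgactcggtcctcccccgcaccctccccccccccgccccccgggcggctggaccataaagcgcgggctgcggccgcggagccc
Nppb: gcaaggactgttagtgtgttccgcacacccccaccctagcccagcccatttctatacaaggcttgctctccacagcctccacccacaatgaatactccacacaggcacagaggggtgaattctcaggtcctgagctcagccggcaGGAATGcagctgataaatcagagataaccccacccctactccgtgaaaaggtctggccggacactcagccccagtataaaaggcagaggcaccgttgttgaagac

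Acta1 and Nppb hold 1 MCAT match each, Ankrd1 and Thbs4 hold 2, and the 2 of Thbs4 share a base. A match is only a string of letters: 12.6% of the 32851 promoters in the table hold MCAT in this window. Of other genes searched by name, Nmrk2, Cilp, Postn and Nppa hold neither motif in this window. Myh7 holds 1 MCAT match and Fhl1 1 CArG box, each before only 1 of its annotated starts. The motif counts of the sorted genes are given further on.

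Some libraries stood apart and touch most results. Library totals ran from 16.5 M to 27.5 M counted read pairs at 8 weeks and from 8.63 M to 26.9 M at 16 weeks. A gene annotated on 18S ribosomal RNA took 6.88% to 39.1% of counts in WT-16, 1.71% to 30.0% in KO-16 and at most 0.0666% at 8 weeks. Mitochondrial genes took 20.6% to 27.2% at 8 weeks and 27.9% to 41.6% at 16 weeks, and 2 of the 16-week libraries (WT-16 replicate 5 and KO-16 replicate 4) were male by sex-linked transcripts. The coefficient of variation between libraries of a group was 0.0932 at 8 weeks and 0.240 at 16 weeks. The labels do not say that each library is a separate animal, so p-values measure only the spread between these libraries.

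KO-16 replicate 1 lay closest to wild type in its group. It kept the most Mpc1, at 26.2 CPM (counts scaled to a common library size), against 9.03, 9.25, 15.1 and 15.9 CPM in replicates 2 to 5. Over the 61 genes sorted below as growing and higher, its median log2 ratio to the WT-16 mean was 0.49, just under the 4 KO-8 libraries (0.55 to 0.97 against the WT-8 mean), while replicates 2, 3 and 4 had 2.54, 2.59 and 2.34 and replicate 5 had 1.24. These medians describe genes chosen with these libraries and carry no test.

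WT-8 replicate 1 carried 3 transcripts that otherwise marked KO libraries. Esr1 (estrogen receptor alpha, chromosome 10) had 1313 CPM there and at most 1.162 CPM in the other WT-8 libraries, against 1039 to 1658 CPM in KO-8. In KO-16 it had 1034 CPM in replicate 1 and 182, 505, 234 and 419 CPM in replicates 2 to 5. A1cf, an RNA-editing cofactor on chromosome 19, had 2.25 CPM in WT-8 replicate 1 and no count in any other WT library. Slc7a8, an amino acid transporter on chromosome 14 (chosen after its values were seen), had 21.1 CPM there, 1.66 to 2.09 in the other WT-8 libraries and a mean of 18.3 in KO-8. At 16 weeks only KO-16 replicate 1 was high for Slc7a8, at 13.5 CPM, and all other 16-week libraries had at most 2.07. Mpc1 itself was at 82.3 CPM in WT-8 replicate 1, the highest of its group. As background, inducible Cre recombinases are often fused to mutated estrogen receptor domains, and the insertion of 1 widely used heart line has been mapped to A1cf. Whether such a construct gave these counts was not tested.

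Mpc1 (ENSMUSG00000023861, GRCm38 chromosome 17, 8282904 to 8297661) was low at both times. The 8-week effect was -2.77 (SE 0.10, adjusted p = 5.53e-10). The 16-week effect was -2.21 (SE 0.25, adjusted p = 0.00118). The difference of effects was 0.56, with a 95% interval from -0.06 to 1.18 (adjusted p = 0.421), and 0.23 without KO-16 replicate 1. Mpc2 (chromosome 1) had 71.0 to 87.5 CPM in WT-8 and 67.7 to 91.6 in KO-8, and 36.8 to 50.3 in WT-16 against 39.0 to 61.5 in KO-16. The groups overlapped at both times, and the difference of effects for Mpc2 was 0.09 (-0.28 to 0.46, adjusted p = 0.842).

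No gene passed the test of the difference of effects. Of 15503 genes, 0 (0.0%) had an adjusted p under 0.05 with edgeR, and the smallest was 0.235. At an unadjusted p under 0.05, 2000 genes differed, 1267 positive (8.17%) and 733 negative (4.73%). DESeq2 called 30 genes, 22 positive and 8 negative, and limma-voom called 0, with 2264 genes under an unadjusted 0.05 and a smallest adjusted p of 0.0548. Without KO-16 replicate 1 the edgeR test called 603 genes, 327 positive and 276 negative, and without KO-16 replicate 5 it called 113, 93 positive and 20 negative. Leaving out any other single library gave 0. The median SE of an effect was 0.10 at 8 weeks and 0.23 at 16 weeks, so most of the uncertainty of a difference lay in the 16-week libraries. All differences given below therefore fell short of the adjusted threshold in the full set of libraries unless another setting is named.

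Genes changed at 8 weeks mostly kept their direction. At 8 weeks 672 genes were higher in KO (4.33% of those tested) and 597 lower (3.85%). At 16 weeks 267 were higher (1.72%) and 126 lower (0.813%). That count of 393 rested on single libraries: it was 1857 without KO-16 replicate 1, 1852 without replicate 5, 231 without WT-16 replicate 3, 37 to 77 without any other 16-week library, 12 without both male libraries and 34 when the 18S share entered the model. With limma-voom 114 genes were higher and 271 lower at 16 weeks, so the balance of directions turned. Of the 1269 genes past the test at 8 weeks, 1166 (91.9%) had the same sign at 16 weeks, against 66.6% of all genes tested. Their median effect in the direction of 8 weeks went from 0.45 to 0.61, and 828 of them (65.2%) had the larger effect at 16 weeks, against 52.5% of all genes tested. For the 672 higher genes the median went from 0.48 to 0.73, and for the 597 lower genes from 0.40 to 0.49. In 229 genes (1.48%) the KO and WT libraries did not overlap at either time, in the same direction.

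**Figure D1:**
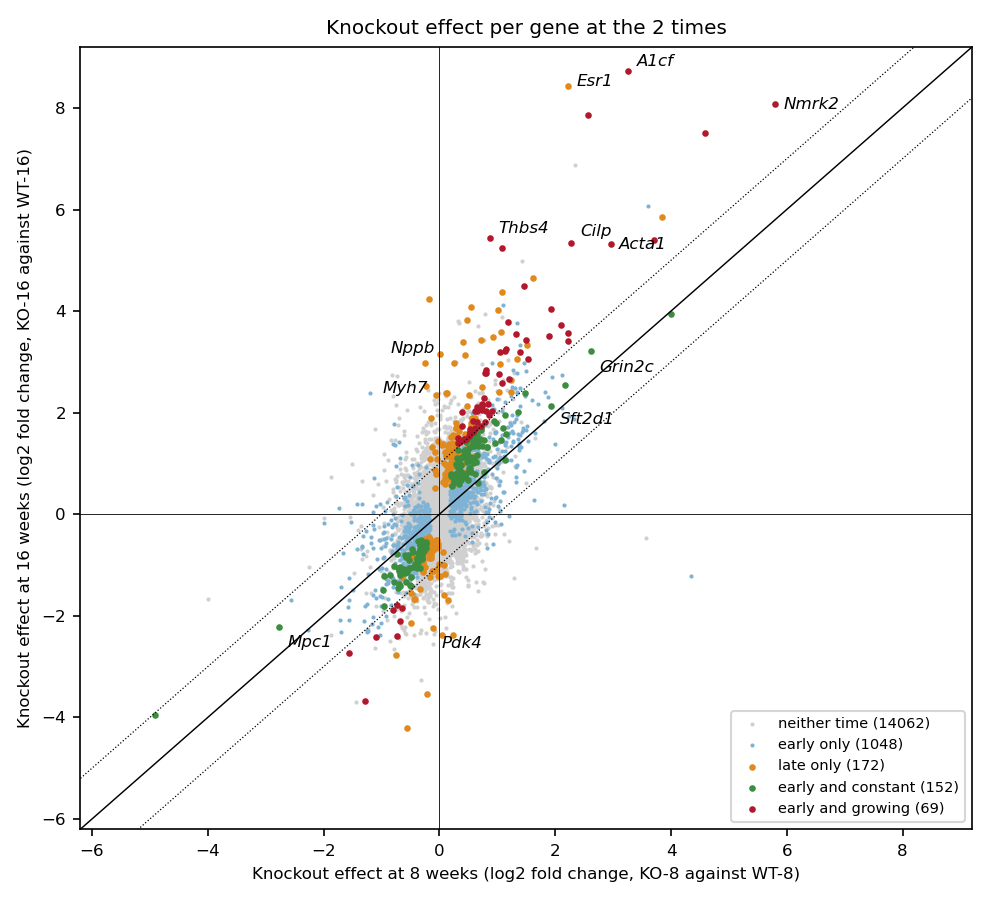
Knockout effect (log2 fold change of KO against WT) of each of 15503 genes at 8 weeks (x axis) and 16 weeks (y axis), coloured by the sort. The solid line marks equal effects and the dotted lines a gain or loss of 1; the 69 growing genes lie beyond the dotted lines, and Mpc1 and Sft2d1 lie near the solid line.

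Genes were then sorted by the tests at each time. A gene past 0.05 at both times in 1 direction counted as early and growing when its effect was larger at 16 weeks by 1 or more on the log2 scale, and otherwise as early and constant. Late only genes passed at 16 weeks alone and early only genes at 8 weeks alone. There were 69 early and growing genes (0.445% of those tested; 61 higher and 8 lower), 152 early and constant (0.98%; 91 higher and 61 lower), 172 late only (1.11%; 115 and 57) and 1048 early only (6.76%; 547 and 501). Among genes past the test at both times, none had an effect smaller by 1 or more at 16 weeks and none had opposite directions. The words are labels of the sort. Of the 152 constant genes 147 also had the larger effect at 16 weeks. Passing at 16 weeks called for a large effect, because the median SE was 0.23 there against 0.10 at 8 weeks. The larger 16-week effects and the lack of genes with a smaller one were thus partly set by the sort. Of the 172 late only genes 151 already had the same sign at 8 weeks, where 66.6% of all genes tested had the same sign at both times. Just inside the limit lay Col3a1, Srpx2 and Qsox1, with gains of 1.01, 1.02 and 1.02. Just outside it lay Igfbp7, Pi16 and Fam198b, with gains of 0.99, 0.98 and 0.96.

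The sizes of the sorted sets rested on single 16-week libraries. Without KO-16 replicate 1, 160 genes were early and growing (all 69 among them), 433 early and constant and 1256 late only, and without KO-16 replicate 5 they were 114 (68 of the 69), 397 and 1331. Without KO-16 replicate 2, 3 or 4 the growing genes were 26, 27 and 23, and without WT-16 replicate 1, 2, 3, 4 or 5 they were 16, 17, 53, 19 and 19. Late only genes fell to between 5 and 12 without any one of KO-16 replicates 2 to 4 or WT-16 replicates 1, 2, 4 and 5.

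**Figure D2:**
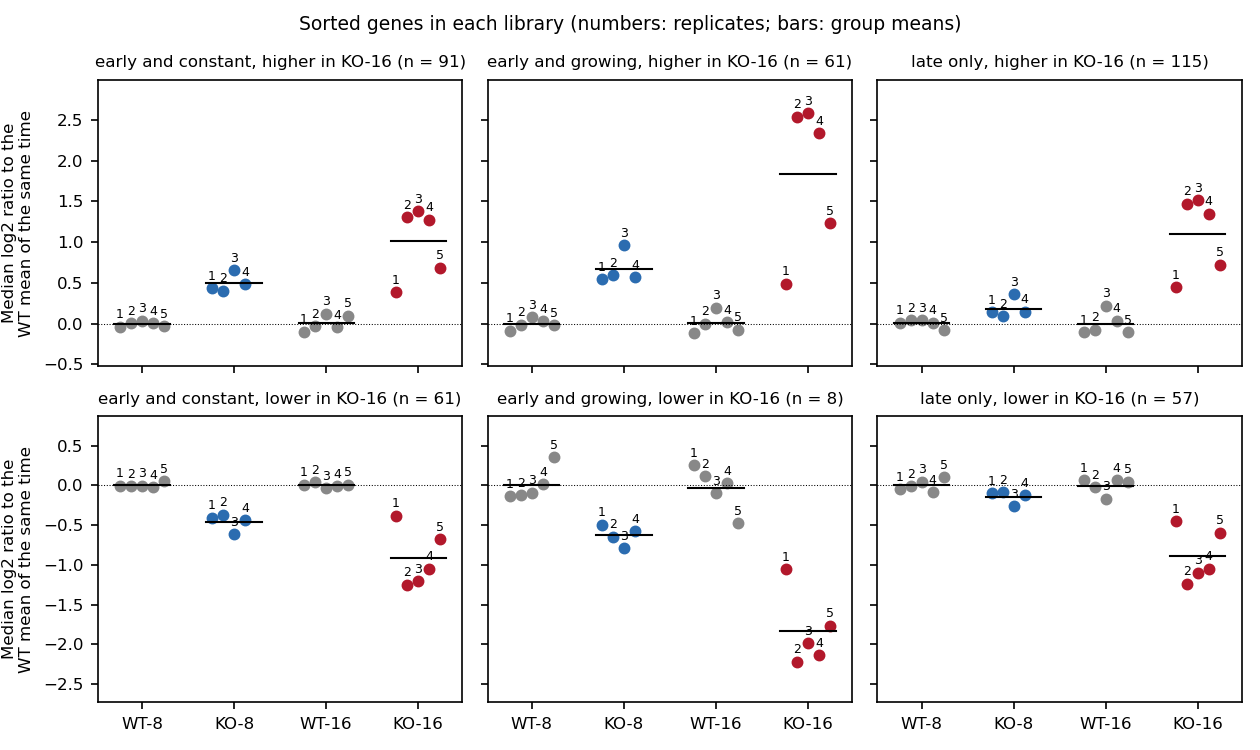
Median log2 ratio of each library to the wild-type mean of its time, over the sorted genes that were higher (top) or lower (bottom) in KO-16; numbers are replicates and bars are group means. KO-16 replicate 1 sits at 0.49 for the growing genes that were higher, beside KO-8 (0.55 to 0.97), and replicates 2 to 4 lie at 2.34 to 2.59.

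The early and growing genes named by size of gain were an NAD synthesis enzyme, an actin and matrix proteins, besides A1cf. Nmrk2, the muscle nicotinamide riboside kinase that makes NAD precursors (chromosome 10, 81198170 to 81202051), had 1.31, 0.837, 1.26, 1.84 and 1.37 CPM in WT-8 and 60.1, 57.7, 35.7 and 140 in KO-8. At 16 weeks it had 1.01, 0.903, 1.89, 1.164 and 1.15 CPM in WT and 29.9, 756, 521, 473 and 90.3 in KO. The KO libraries lay far above WT at both times, KO-16 replicate 5 lay within the range of KO-8 and replicate 1 just under it. Nmrk2 rose 55.3-fold early (log2 SE 0.38, adjusted p = 1.14e-06) and 271-fold late (log2 SE 0.86, adjusted p = 0.000801), and the difference of effects was 2.27 (0.05 to 4.49, adjusted p = 0.386).

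Acta1 (chromosome 8, 123891769 to 123894751) had 63.4, 86.9, 96.02, 41.4 and 35.3 CPM in WT-8 and 354, 375, 799 and 458 in KO-8. In WT-16 it had 10.4, 6.14, 16.6, 16.8 and 50.5 CPM, and in KO-16 127, 1774, 925, 861 and 262. The groups did not overlap at either time, and the wild-type libraries were lower at 16 than at 8 weeks (means 20.1 and 64.6 CPM), so the rise of the effect from 2.96 (SE 0.30) to 5.32 (SE 0.72) came with a lower wild-type level as well as a higher KO mean (790 against 496 CPM). The difference of effects was 2.38 (0.71 to 4.05, adjusted p = 0.312), and 2.66 (adjusted p = 0.0375) without KO-16 replicate 1.

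Of the matrix genes, Cilp, a cartilage and fibrosis matrix protein (chromosome 9), had 2.82 to 8.59 CPM in WT-8 and 19.3, 14.8, 49.4 and 13.7 in KO-8. It had 1.81 to 4.69 CPM in WT-16 and 10.1, 211, 294, 112 and 48.0 in KO-16. Its effect went from 2.28 (SE 0.37) to 5.33 (SE 0.74). Thbs4, a thrombospondin of the matrix (chromosome 13), had 1.55 to 2.50 CPM in WT-8 and 3.57, 2.97, 5.84 and 3.10 in KO-8, then 1.01 to 2.07 in WT-16 and 2.17, 62.7, 176, 59.5 and 14.9 in KO-16. For Thbs4 the lowest KO-16 library was barely above the highest WT-16 library, and replicate 3 held most of the group's signal. Its difference of effects was the largest of the named matrix genes at 4.61 (2.28 to 6.94, adjusted p = 0.266), with adjusted p = 0.016 in DESeq2 and 0.0042 without KO-16 replicate 1.

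Ltbp2, which binds matrix microfibrils, had 0.770 to 1.30 CPM in WT-8 and 1.504 to 3.57 in KO-8, then 0 to 1.52 in WT-16 and 0.981, 30.6, 82.0, 34.7 and 6.31 in KO-16. At 16 weeks KO-16 replicate 1 lay inside the WT-16 range of Ltbp2. Ccn5, a matricellular growth factor binding protein, had effects of 1.46 (SE 0.36) and 4.50 (SE 0.87). Col8a1, a short-chain collagen, rose 2.07-fold at 8 weeks and 9.22-fold at 16 weeks, with a difference of 2.16 (0.98 to 3.34, adjusted p = 0.271). Ankrd1, a stress-responsive ankyrin repeat protein of muscle (chosen after its values were seen), had effects of 1.09 (SE 0.20) and 2.58 (SE 0.37) and KO-16 levels of 939 CPM in replicate 1 and up to 5479 CPM.

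A1cf met the growing rule only because of WT-8 replicate 1. Its KO levels were 3.58 to 6.64 CPM at 8 weeks and 3.05 to 5.74 CPM at 16 weeks. At 16 weeks no WT library had a count, and with the WT group set to a floor of 3 counts in total the KO mean was at least 81.9-fold higher. Without WT-8 replicate 1 the difference of effects of A1cf was -0.11, against 6.10 with it.

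Of the 8 growing genes that fell, Ehhadh, the peroxisomal bifunctional enzyme of fatty acid oxidation, had 7.09 to 13.8 CPM in WT-8 and 6.05 to 6.45 in KO-8, then 5.42 to 13.97 in WT-16 and 3.08, 1.51, 2.16, 1.83 and 3.98 in KO-16. Its effect went from -0.64 (SE 0.17) to -1.84 (SE 0.31), a difference of -1.24 (-1.99 to -0.50, adjusted p = 0.273).

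**Figure D3:**
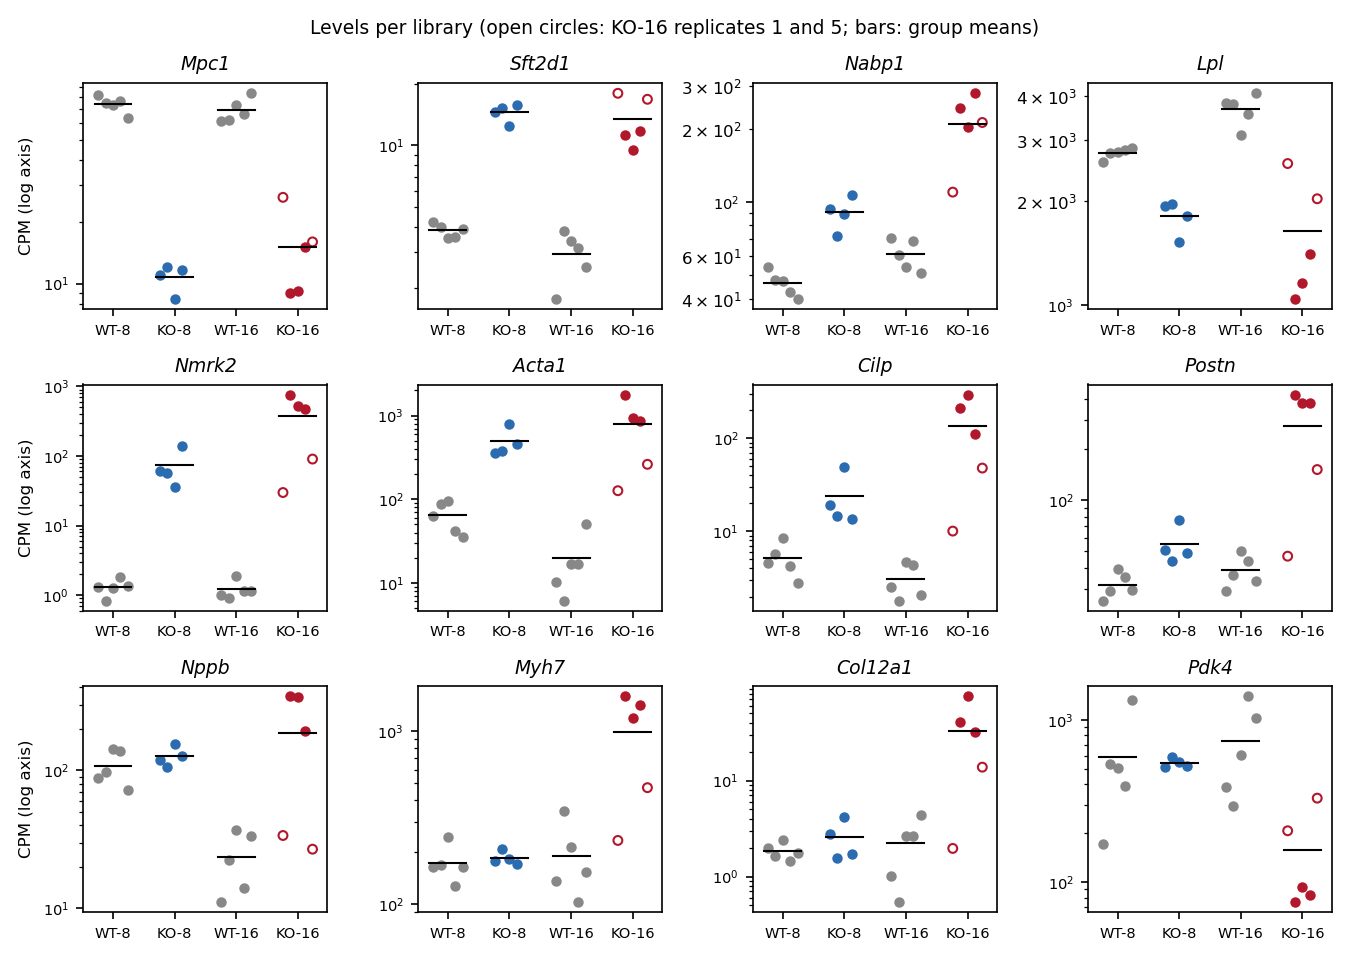
CPM of 12 genes in each library on log axes that differ between panels; points are libraries, bars are group means, and open circles are KO-16 replicates 1 and 5. Mpc1, Sft2d1 and Lpl separate KO from WT at both times. The KO-8 libraries of Nppb, Myh7 and Col12a1 overlap WT-8, and KO-16 replicate 1 overlaps WT-16. For Nppb, KO-16 replicate 5 overlaps WT-16 too.

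The early and constant genes named by their tests were 7 that rose besides Mpc1, which fell. Sft2d1, a vesicle transport protein whose gene lies at 8311102 to 8327442 on chromosome 17, beyond the end of Mpc1 at 8297661, had 4.20, 3.98, 3.53, 3.57 and 3.89 CPM in WT-8 and 14.5, 15.2, 12.4 and 15.8 in KO-8. It had 1.77, 3.79, 3.40, 3.16 and 2.53 CPM in WT-16 and 17.9, 11.2, 9.44, 11.7 and 16.8 in KO-16. All KO libraries lay above all WT libraries, and here KO-16 replicates 1 and 5 were the highest of their group. The effects were 1.92 (SE 0.09) and 2.14 (SE 0.24), with a difference of 0.19 (-0.34 to 0.72, adjusted p = 0.761). The difference was 0.04 without KO-16 replicate 1.

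Prkg1, a cGMP-dependent protein kinase (chromosome 19, 30564489 to 31765033, next in position to A1cf, which starts at 31868764), had effects of 0.77 (SE 0.13) and 0.83 (SE 0.13). Its KO levels were 33.4 to 50.4 CPM against 20.1 to 29.4 in WT at 8 weeks, and 41.2 to 63.9 against 28.1 to 34.5 at 16 weeks. The difference of effects for Prkg1 was 0.06 (-0.34 to 0.45, adjusted p = 0.918). Msrb1, a methionine sulfoxide reductase (chromosome 17), had effects of 1.07 and 1.46, and Plpp1, a lipid phosphate phosphatase, 0.45 and 0.75. The difference was 0.40 for Msrb1 (-0.11 to 0.90, adjusted p = 0.476), an interval that spans 0. For Plpp1 it was 0.31 (0.06 to 0.56, unadjusted p = 0.018, adjusted p = 0.331), an interval above 0.

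Nabp1, a single-stranded DNA binding protein (chromosome 1), had 39.8 to 53.8 CPM in WT-8 and 93.4, 72.6, 89.5 and 107 in KO-8, then 50.8 to 70.7 in WT-16 and 110, 243, 202, 280 and 212 in KO-16. The sort calls it constant, yet its effect went from 0.98 (SE 0.10) to 1.79 (SE 0.21), a difference of 0.81 (0.28 to 1.34, unadjusted p = 0.0044, adjusted p = 0.298). Fhl1, which carries LIM domains and binds sarcomeric titin, went from 1.48 to 2.39, and its KO-16 levels of 82.8, 550, 294, 399 and 174 CPM ran from inside the KO-8 range (81.1 to 153) to above it. Grin2c, a glutamate receptor subunit, rose 6.12-fold and 9.23-fold, with an interval of the difference from -0.64 to 1.91.

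The 10 late only genes named by size of effect were Esr1, matrix and secreted proteins, Dio2 and Dusp4. Esr1 passed at 16 weeks (effect 8.44, SE 0.60, adjusted p = 1.31e-05) and did not pass at 8 weeks (2.23, SE 1.55, adjusted p = 0.430), where WT-8 replicate 1 had the level of KO. Without that library its difference of effects was -2.02, against 6.22 with it, so the place of Esr1 in this set rested on 1 control library.

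Col12a1, a collagen of the fibril surface (chromosome 9), had 1.99, 1.63, 2.40, 1.44 and 1.76 CPM in WT-8 and 2.79, 1.55, 4.16 and 1.72 in KO-8. At 16 weeks it had 1.01, 0.542, 2.67, 2.66 and 4.36 CPM in WT and 1.96, 40.2, 75.4, 32.0 and 13.8 in KO. The groups overlapped at 8 weeks, and at 16 weeks only KO-16 replicate 1 lay within the WT range. Its effect went from 0.47 (SE 0.26) to 3.83 (SE 0.74), a difference of 3.36 (1.45 to 5.28, adjusted p = 0.271), and 3.67 (adjusted p = 0.0049) without KO-16 replicate 1.

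Col8a2, a second short-chain collagen, had 0.385 to 0.681 CPM in WT-8 and 0.523 to 1.72 in KO-8. It had 0 to 0.333 CPM in WT-16 and 0.350, 5.075, 7.34, 0.976 and 0.498 in KO-16. Only KO-16 replicates 2 and 3 lay above the 8-week libraries, and the WT-16 levels were near 0. Frem1, a basement membrane protein, had 0.733 to 1.72 CPM in KO-8 and 0.631, 22.8, 16.7, 13.4 and 3.82 in KO-16, against at most 1.33 in any WT library. Sfrp2, a secreted Wnt modulator, Comp, the matrix pentamer of cartilage, Fmod, the small proteoglycan fibromodulin, and Angptl7, an angiopoietin-like secreted protein, had 16-week effects of 3.59, 3.49, 3.39 and 3.14. In each of these 4 genes KO-16 replicate 3 was far above the rest of its group: Comp had 1.40, 14.6, 69.4, 10.98 and 9.13 CPM in KO-16. Dio2, the deiodinase that activates thyroid hormone, had an effect of 3.42 and Dusp4, a phosphatase of MAP kinases, 3.15, with KO-16 levels of Dusp4 at 0.911, 8.00, 4.26, 15.3 and 0.996 CPM.

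**Figure D4:**
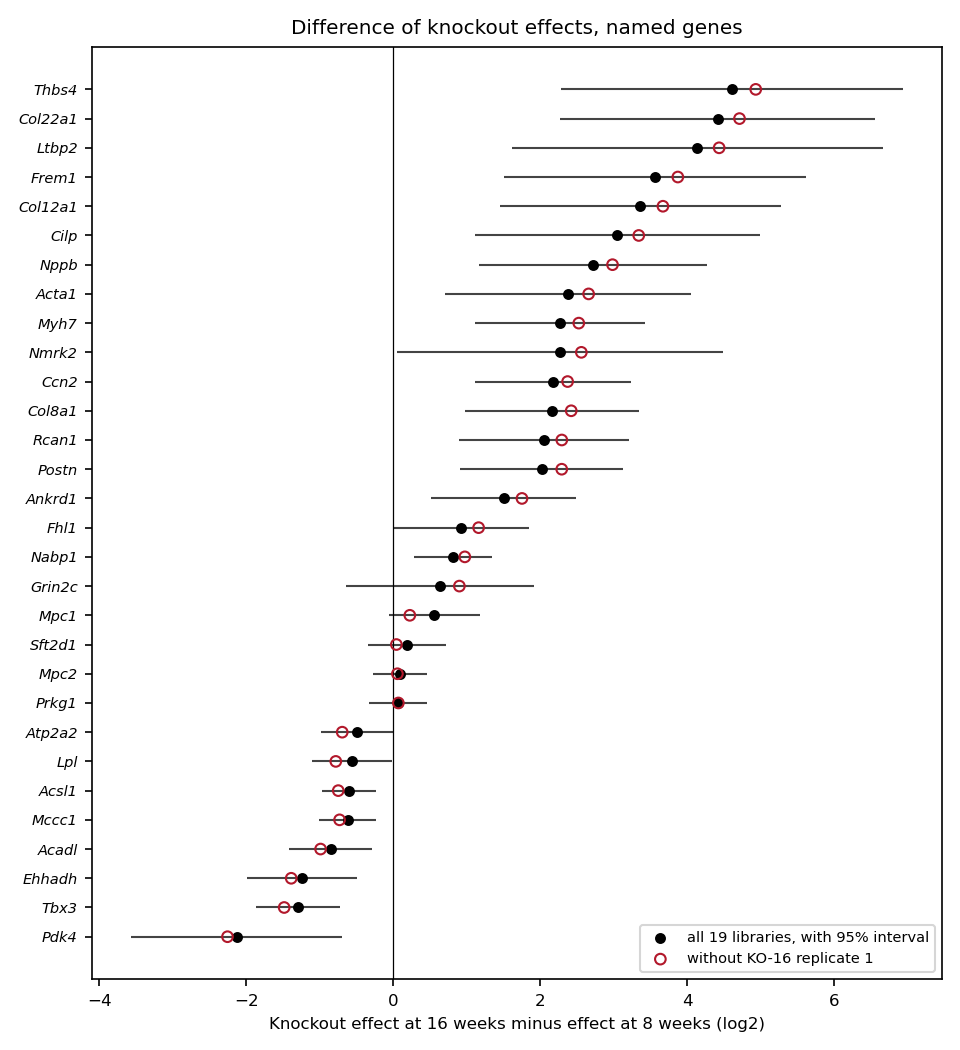
Difference of knockout effects (16 weeks minus 8 weeks, log2) for 30 named genes; filled points are all 19 libraries with 95% intervals, and open circles leave out KO-16 replicate 1. Thbs4 lies highest at 4.61, the intervals of Fhl1, Grin2c, Mpc1, Sft2d1, Mpc2, Prkg1 and Atp2a2 span 0, and Pdk4 lies lowest at -2.13.

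Many collagens and other matrix genes passed higher in KO at 8 weeks, at 16 weeks or at both. Of 19 measured collagens 15 passed higher at 8 weeks and 15 at 16 weeks, none lower, against 4.33% and 1.72% of all genes. Their median effect went from 0.62 to 1.58, and 13 had a positive difference at an unadjusted p under 0.05, where 8.17% of all genes did. In the sort 6 were growing, 6 constant, 3 late only and 3 early only. Over all genes these shares were 0.445%, 0.98%, 1.11% and 6.76%. Col5a2, a fibril collagen, had effects of 0.69 and 2.08. Col22a1, a collagen of tissue junctions, had at most 0.502 CPM in every 8-week library and 0.280, 3.09, 6.91, 3.29 and 1.33 CPM in KO-16 against 0 to 0.276 in WT-16. The difference of effects of Col22a1 was 4.42 (2.28 to 6.56, adjusted p = 0.235; 0.0197 in DESeq2).

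Of 32 matricellular, matrix and crosslinking genes, 18 passed higher and 1 lower at 8 weeks and 17 higher at 16 weeks. Over all genes 4.33% passed higher and 3.85% lower at 8 weeks and 1.72% higher at 16 weeks. The median effect went from 0.41 to 1.37, and 22 had a positive difference at an unadjusted p under 0.05, where 8.17% of all genes did. Postn, the matricellular periostin (chromosome 3), had 25.5 to 39.1 CPM in WT-8 and 50.8, 43.8, 76.6 and 48.6 in KO-8, then 29.1, 36.1, 50.0, 43.9 and 33.1 in WT-16 and 46.7, 421, 376, 376 and 152 in KO-16. At 16 weeks KO-16 replicate 1 overlapped the WT libraries for Postn. Fbn1, the microfibril protein fibrillin, had effects of 0.52 and 1.61.

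Ccn2, connective tissue growth factor, went against the list at 8 weeks. It had 57.2, 60.8, 87.9, 89.2 and 48.9 CPM in WT-8 and 48.9, 28.6, 50.0 and 51.5 in KO-8, then 42.2 to 106 in WT-16 and 84.5, 233, 279, 377 and 87.2 in KO-16. Its effects were -0.61 (SE 0.19, adjusted p = 0.0645) and 1.56 (SE 0.40, adjusted p = 0.0530), so neither passed. The difference was 2.17 (1.11 to 3.23, adjusted p = 0.235), with adjusted p = 0.009 without KO-16 replicate 1 and 0.0395 without replicate 5. Of 16 TGF-beta ligands, receptors and binding proteins, 2 passed higher at each time, against 4.33% and 1.72% of all genes. Tgfb3, a TGF-beta ligand, had effects of 0.38 (adjusted p = 0.0545) and 1.23 (adjusted p = 0.0235).

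Fibroblast markers were read beside these genes. Of 7 measured activated fibroblast markers 4 passed higher at 8 weeks and 5 at 16 weeks, against 4.33% and 1.72% of all genes. Among them was Meox1, a transcription factor of activated fibroblasts (0.80 and 2.79). That list shares Postn, Comp, Cilp and Thbs4 with the matrix genes. Its summed level was 89.1 to 128 CPM in WT-8, 142 to 281 in KO-8, 68.2 to 146 in WT-16 against 131 to 1013 in KO-16. Of 10 fibroblast markers 3 passed higher at 8 weeks and 2 at 16 weeks, beside the same shares of all genes. Their sums were 1083 to 1155, 1032 to 1610, 673 to 934 and 879 to 1511 CPM in the same order. In whole tissue more cells of a type and more RNA per cell cannot be told apart, and the part of fibroblast number in the matrix values was not tested.

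Natriuretic peptides and fetal genes split between growing and late. Of 18 measured genes 6 passed higher at 8 weeks and 9 at 16 weeks, none lower, where 4.33% and 1.72% of all genes passed higher, and the median effect went from 0.17 to 1.09. Nppb (chromosome 4, 147985788 to 147987205) had 87.7, 97.2, 143, 139 and 72.2 CPM in WT-8 and 118, 106, 156 and 128 in KO-8. It had 11.1, 22.4, 37.1, 13.97 and 33.3 CPM in WT-16 and 33.8, 345, 338, 193 and 26.9 in KO-16. At 8 weeks the groups overlapped, and at 16 weeks only replicates 2, 3 and 4 of KO-16 lay above all WT-16 libraries. The difference of effects of Nppb was 2.72 (1.17 to 4.27, adjusted p = 0.271), and WT-16 lay below every WT-8 library.

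Myh7 (chromosome 14, 54970684 to 54994626) also overlapped at 8 weeks, with 127 to 244 CPM in WT-8, 171 to 210 in KO-8, 103 to 346 in WT-16 and 234 in the lowest, 1203 in the median and 1598 in the highest library of KO-16. Its effects were 0.11 (SE 0.14) and 2.38 (SE 0.46), a difference of 2.27 (1.12 to 3.43, adjusted p = 0.266; 0.0058 without KO-16 replicate 1). Nppa, unlike Nppb and Myh7, had passed at 8 weeks, with 109 to 207 CPM in KO-8 against 23.0 to 46.6 in WT-8. At 16 weeks its KO levels, from 207 to 2349 CPM, overlapped WT-16, where replicate 3 had 329 CPM and the rest between 26 and 112. Rcan1, a calcineurin regulator, and Ankrd23, a muscle ankyrin repeat protein, were late only, with 16-week effects of 1.89 and 1.39. The summed atrial markers, which include Nppa, reached 61.6 CPM in WT-8, 220 in KO-8, 584 in WT-16 (group medians 41.6, 146 and 56.1) and 2376 in KO-16. Dkk3, a secreted protein on that list, passed at 8 weeks (0.84). None of Sln, Myl7 and Myl4, which mark atrial muscle, passed higher at either time (16-week effects of -0.07, -0.30 and 0.23). Over the 6 measured atrial markers the median effect went from -0.41 at 8 weeks to 0.08 at 16 weeks. Their median difference of effects was 0.87, from -0.01 to 1.80, and none had an unadjusted p under 0.05. The part of atrial tissue in the Nppa values was not tested.

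Genes of fatty acid use had lower median effects at 16 than at 8 weeks, and few of them passed a test. Of 24 measured genes of fatty acid uptake and oxidation, 3 passed lower at 8 weeks and 5 at 16 weeks, none higher, against 3.85% and 0.813% of all genes. The median effect went from -0.08 to -0.63, and 17 had a negative difference at an unadjusted p under 0.05, where 4.73% of all genes did. Acsl1, which activates fatty acids to acyl-CoA (chromosome 8), had 692 to 749 CPM in WT-8 and 747, 731, 713 and 603 in KO-8. It had 676, 648, 662, 763 and 706 CPM in WT-16 and 606, 416, 358, 344 and 483 in KO-16, so that the groups overlapped at 8 weeks and were separate at 16 weeks. The effects were -0.03 (SE 0.07) and -0.64 (SE 0.15), a difference of -0.61 (-0.97 to -0.24, adjusted p = 0.273), and -0.75 (adjusted p = 0.0071) without KO-16 replicate 1.

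Acadl, the long-chain acyl-CoA dehydrogenase, had effects of -0.02 (SE 0.05) and -0.87 (SE 0.24, adjusted p = 0.0611). Cpt1a, a carnitine palmitoyltransferase of the outer membrane, had 0.21 and -0.45, neither past the test. Lpl, lipoprotein lipase (chosen after its values were seen), was low early: it had 2587 to 2840 CPM in WT-8 and 1521 to 1953 in KO-8, and 3103 to 4084 in WT-16 against 1039 to 2560 in KO-16. The effects of Lpl were -0.60 (SE 0.07) and -1.17 (SE 0.23), and no KO library reached a WT library of its time.

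Of 18 PPAR-alpha target genes 1 passed higher and 3 lower at 8 weeks and 5 lower at 16 weeks, with medians of -0.09 and -0.68. Over all genes 4.33% passed higher and 3.85% lower at 8 weeks and 0.813% lower at 16 weeks. A count of 1 higher gene of 18 was thus near the background. The list shares Acsl1, Cpt1b and Fabp3 with the fatty acid genes above, so the 2 lists are not separate. Plin2, a lipid droplet protein, was the member that passed higher at 8 weeks (0.22, adjusted p = 0.0453), and its 16-week effect was -0.42 (adjusted p = 0.116). Pdk4, the kinase that shuts off pyruvate dehydrogenase (chromosome 6), had 173, 532, 503, 392 and 1330 CPM in WT-8 and 513, 587, 551 and 519 in KO-8. It had 293 to 1395 CPM in WT-16 and 207, 75.2, 93.5, 83.0 and 329 in KO-16. Pdk4 varied widely among WT libraries, and KO-16 replicate 5 overlapped them. The difference of effects was -2.13 (-3.57 to -0.69, adjusted p = 0.311).

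Branched-chain amino acid breakdown followed the oxidation genes with smaller sizes. Of 20 genes 5 passed lower at 8 weeks and 6 at 16 weeks, none higher, against 3.85% and 0.813% of all genes. The median effect went from -0.14 to -0.45. Mccc1, a carboxylase subunit of leucine breakdown, had 48.3 to 54.9 CPM in WT-8 and 37.6 to 49.2 in KO-8, then 49.6 to 62.9 in WT-16 and 41.8, 22.7, 28.7, 30.7 and 41.2 in KO-16. Mut, the methylmalonyl-CoA mutase, and Dbt, a subunit of the branched-chain ketoacid dehydrogenase, were late only (-0.86 and -0.92 at 16 weeks). Aldh6a1, of valine breakdown, was lower at both times (-0.30 and -0.88). In the tricarboxylic acid cycle 1 of 18 genes passed higher and 2 lower at 8 weeks and none at 16 weeks. At 8 weeks 4.33% of all genes passed higher and 3.85% lower, so 1 higher gene of 18 was near the background. That gene was Dlst, a subunit of oxoglutarate dehydrogenase (0.27 at 8 weeks, -0.14 at 16 weeks).

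Of 20 measured genes of glucose uptake and glycolysis, 5 passed higher and 1 lower at 8 weeks and 3 higher at 16 weeks, with medians of 0.18 and 0.58. Over all genes 4.33% passed higher and 3.85% lower at 8 weeks and 1.72% higher at 16 weeks, so 1 lower gene of 20 was near the background. Slc2a1, the glucose transporter GLUT1 (chromosome 4), was the member that fell at 8 weeks, with 4.84 to 6.61 CPM in WT-8 and 4.43, 4.32, 4.04 and 4.70 in KO-8. It had 2.76 to 6.68 CPM in WT-16 and 5.75, 13.1, 12.1, 10.6 and 2.16 in KO-16, where replicate 5 was below every WT library. Its effects were -0.38 (adjusted p = 0.0416) and 0.96 (adjusted p = 0.147), a difference of 1.36 (0.49 to 2.22, adjusted p = 0.286). Pfkp, a phosphofructokinase, and Hk2, a hexokinase, had effects of 0.29 and 1.54 and of 0.09 and 0.79. Pfkp passed at 16 weeks and Hk2 at neither time.

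Calcium cycling and ion channel genes passed lower more often at 8 weeks than at 16 weeks, as did all genes. Of 24 genes 1 passed higher and 10 lower at 8 weeks and 1 lower at 16 weeks, where 3.85% and 0.813% of all genes passed lower. In the sort 10 were early only, against 6.76% of all genes. Their median effect was nonetheless larger at 16 weeks (-0.17 and -0.35). Atp2a2, the calcium pump SERCA2 (chromosome 5), had 7423 to 7668 CPM in WT-8 and 4747 to 6449 in KO-8, then 7212 to 8368 in WT-16 against 2892 to 6401 in KO-16. It passed at both times (-0.38 and -0.87), with a difference of -0.49 (-0.99 to 0.01, adjusted p = 0.396). Ryr2, the calcium release channel, and Pln, the inhibitor of the pump, passed at 8 weeks (-0.32 and -0.25) and not at 16 weeks (-0.90, adjusted p = 0.0740, and -0.73, adjusted p = 0.0707). Without KO-16 replicate 1 both passed at 16 weeks too (adjusted p = 0.0079 and 0.0048). These 2 were also the only ones of 10 cardiomyocyte markers past a test, and the summed cardiomyocyte markers were 110800 to 114900 CPM in WT-8, 106300 to 113700 in KO-8, 118800 to 135200 in WT-16 against 88800 to 128100 in KO-16. Markers of skeletal muscle reached at most 2.81 CPM in any library.

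**Figure D5:**
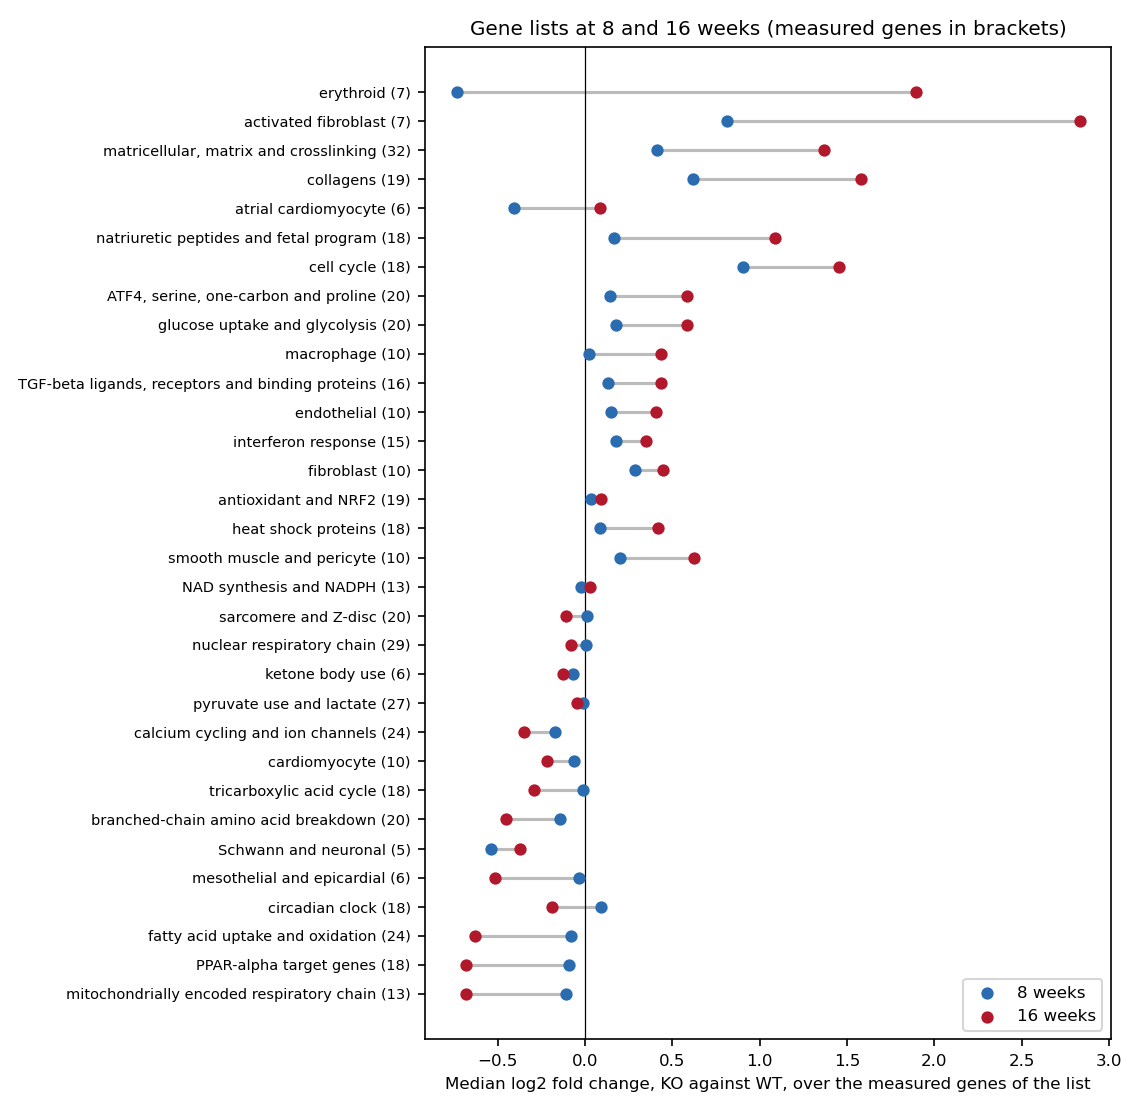
Median knockout effect (log2 fold change, x axis) of 32 gene and marker lists at 8 weeks (blue) and 16 weeks (red), with the number of measured genes in brackets. Activated fibroblast markers go from 0.81 to 2.83 and collagens from 0.62 to 1.58, fatty acid genes from -0.08 to -0.63, and erythroid genes from -0.74 to 1.90.

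Early only genes were the largest set, and 945 of the 1048 had the same sign at 16 weeks, with a median absolute effect of 0.42 at 8 weeks and 0.50 at 16 weeks. The wider spread at 16 weeks thus stood beside effects of like size. Cell cycle genes were an example. Of 18, 9 passed higher and 1 lower at 8 weeks, against 4.33% and 3.85% of all genes. At 16 weeks 0 passed higher and 1 lower, against 1.72% and 0.813%. The median effect was 0.90 and 1.45. The median difference of that list was 0.57, and -0.28 without KO-16 replicate 2. Bub1, a spindle checkpoint kinase (chromosome 2), had 0.289, 0.753, 0.654, 0.561 and 0.311 CPM in WT-8 and 2.06, 1.43, 0.799 and 0.859 in KO-8, then 0 to 0.361 in WT-16 and 0.701, 2.62, 0.740, 0.854 and 0 in KO-16. Levels this low rest on few counts.

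Of the 1269 genes past the test at 8 weeks, 212 had at 16 weeks an effect of at most 0.5 times that at 8 weeks or of the opposite sign. Over all genes tested the share was larger, at 6195 of 15503. Hspb6, a small heat shock protein (chromosome 7), had 204, 224, 242, 232 and 222 CPM in WT-8 and 374, 393, 420 and 459 in KO-8, but 326 to 740 in WT-16 against 426 to 792 in KO-16, where the groups overlapped. Its effects were 0.88 (SE 0.07) and 0.31 (SE 0.21), a difference of -0.56 (-1.07 to -0.06, adjusted p = 0.348). Atf3, a stress-induced transcription factor (chromosome 1), had 3.58 to 11.8 CPM in WT-8 and 1.47 to 2.84 in KO-8, and 1.26 to 14.6 in WT-16 against 3.58 to 9.34 in KO-16. The effects of Atf3 were -1.99 (SE 0.30) and -0.17 (SE 0.46), a difference of 1.77 (0.52 to 3.03, adjusted p = 0.312). Dbp, a clock-controlled transcription factor, had effects of 1.06 and -0.19; the hour of collection was not given in the labels.

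Tbx3, a T-box transcription factor of the conduction system (chromosome 5, 119670669 to 119684724; chosen after its values were seen), was the 1 gene whose KO and WT libraries did not overlap at either time but in opposite directions. How many of the 15503 genes would do so by chance was not tested. It had 6.13, 5.73, 5.58, 6.01 and 5.62 CPM in WT-8 and 6.53, 9.33, 6.18 and 7.65 in KO-8. It had 6.57, 8.67, 8.69, 8.32 and 9.42 CPM in WT-16 and 6.10, 2.70, 3.21, 4.64 and 6.31 in KO-16. The effects of Tbx3 were 0.36 (SE 0.11, adjusted p = 0.0570) and -0.90 (SE 0.24, adjusted p = 0.0607), and the difference was -1.30 (-1.86 to -0.73, adjusted p = 0.235; 0.016 in DESeq2 and 0.006 without KO-16 replicate 1).

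Blood and other non-muscle markers were read in the same way. All 7 erythroid genes had a positive difference at an unadjusted p under 0.05, where 8.17% of all genes did. Their median effects were -0.74 and 1.90. At 8 weeks 2 passed lower, against 3.85% of all genes, and none passed at 16 weeks. Hbb-bs, a beta-globin (chromosome 7), had 437, 539, 582, 788 and 347 CPM in WT-8 and 204, 341, 282 and 458 in KO-8, then 25.3 to 79.5 in WT-16 and 67.5, 149, 837, 343 and 24.2 in KO-16. The groups overlapped at both times. Of 10 macrophage markers none passed at either time, with C1qc, a complement component, at -0.05 and 1.09. No lymphocyte marker was measured after the filter on low counts, and those 8 genes summed to at most 3.31 CPM in any library. Of 10 endothelial markers 3 passed higher at 8 weeks and 1 at 16 weeks, where 4.33% and 1.72% of all genes did.

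Further lists were set beside the shares of all genes. Over all genes 4.33% passed higher and 3.85% lower at 8 weeks, and 1.72% and 0.813% at 16 weeks. Beside these shares, a count of 1 member says little about its list. Of 27 genes of pyruvate use and lactate, which include Pdk4, 4 passed higher and 2 lower at 8 weeks and 3 lower at 16 weeks, with medians of -0.01 and -0.04. Of 20 ATF4 target, serine, one-carbon and proline genes, 1 passed higher and 2 lower at 8 weeks and 1 lower at 16 weeks (medians 0.14 and 0.58). Heat shock proteins (18 genes) had 5 higher and 1 lower at 8 weeks and 0 at 16 weeks, and sarcomere genes (20) had 4 higher and 1 lower and then 0. Of 13 mitochondrially encoded genes 1 passed at 8 weeks and none at 16 weeks, with medians of -0.11 and -0.68. Their differences of effects were positive in 5 and negative in 8, from -1.095 to 1.811. The lowest was that of mt-Nd5, a complex I subunit, which had 8093 to 39410 CPM in KO-16 and 19470 to 61950 in WT-16. No nuclear respiratory chain gene of 29 passed at either time (medians 0.01 and -0.08). Nnt, which makes mitochondrial NADPH, had effects of -0.18 and -1.11 (adjusted p = 0.0707). Gpx1, a glutathione peroxidase, was the 1 antioxidant gene past the test at 16 weeks (0.10 and 1.23).

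The 250 upstream bases were searched in the sorted genes that matched a RefSeq promoter by symbol. MCAT was present in 15 of 49 early and growing genes (30.6%), 28 of 120 late only (23.3%), 17 of 112 early and constant (15.2%) and 106 of 701 early only genes (15.1%), against 1398 of 10649 tested genes (13.1%). Beside Acta1, Ankrd1 and Thbs4, the growing genes with the motif included Col3a1, Timp1, Svep1 and Vgll3, and beside Nppb the late only genes included Myh7, Ankrd23 and Dio2. The AP-1 motif (TGANTCA) was in 3 of the 49 growing genes (6.12%) against 5.51% of tested genes, and the E-box (CANNTG) in 30 of 49 (61.2%) against 62.0%. In the late only genes the E-box was in 92 of 120 (76.7%), so MCAT was not the one motif with a share above that of tested genes. The CArG box was in 1 of the 49 (2.04%), Acta1, against 1.45% of tested genes. Both strands were read, a gene counted once whichever of its promoters held the match, and no test was made.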

How the data were processed

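The authors deposited counts, whole read pairs assigned to each gene with featureCounts 1.6.3 on GRCm38 and Ensembl 96, paired and reverse-stranded, per the file headers. The submitters' processing notes also name cutadapt 1.16, STAR, RSEM and SAMtools, with no role or order. RNA was depleted of ribosomal RNA and sequenced as stranded pairs of 51 cycles, per the labels' protocols. The 2 files of each 16-week library were summed. CPM were counts scaled by library size and TMM factors.

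All 15503 genes that passed filterByExpr were fitted with edgeR 4.0.16 (quasi-likelihood, R 4.3.3) with Benjamini-Hochberg adjustment at 0.05. The difference used all 19 libraries, and the effect at each time used its own libraries. Every adjusted p is from edgeR unless DESeq2 is named. Fold changes keep edgeR's small prior count. The within-time tests sort the genes, so the difference test is not independent of the sort.

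Named genes were Mpc1, Mpc2, the largest differences past the test (there were none), up to 8 constant genes by test, up to 8 growing genes by gain, up to 10 late genes by effect, and up to 4 of each list by the test of the difference, with a mean of at least 1 CPM for sorted genes. Not all are printed. Col3a1, Srpx2, Qsox1, Igfbp7, Pi16 and Fam198b mark the limit, and Dkk3 and genes named for a motif were chosen after their values were seen. The sort, members, 23 pathway lists and 14 marker lists were chosen with earlier results of these data known.

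Alternatives were RLE and upper-quartile factors, other filters, DESeq2 1.42.0, limma-voom (limma 3.58.1) with and without weights per time, thinning, genes or files left out, sex or the 18S share as a covariate, and each library left out. Libraries over 20% 18S were added after seeing the data. The scripts were tested on simulated data. Python 3.11.15 made the tables, and matplotlib 3.10.9 the figures.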

Additional observations from a re-analysis of the deposited data

Results flagged for a closer look

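Among 276 groups of 4 or 5 libraries of the 69 genes named, 26 held 1 library far from the rest: its gap to the nearest library, divided by the range of the group, was above Dixon's 95% critical value. By the construction of that value chance flags about 1 in 20 groups of independent, normally distributed values. These groups hold CPM of named genes and share libraries, so their own chance rate may differ and was not tested. WT-8 replicate 1 had 1313 CPM of Esr1 (others 0.628 to 1.162), 2.25 of A1cf (others 0) and 21.1 of Slc7a8 (others 1.66 to 2.09), and KO-16 replicate 1 had 13.5 CPM of Slc7a8 (others 0.664 to 1.17). Replicate 3 of KO-16 had 52.1 CPM of Sfrp2, 69.4 of Comp, 55.6 of Fmod and 19.6 of Angptl7, where the next highest libraries had 7.08, 14.6, 14.6 and 5.72. Replicate 3 of KO-8 had 49.4 CPM of Cilp, 54.4 of Col8a1, 1658 of Esr1, 4.08 of Sfrp2 and 5.30 of Comp. Replicate 2 of KO-8 was low for Ccn2 (28.6 CPM) and Gpx1 (23.9 CPM), and replicate 2 of KO-16 was high for Atf3 (9.34 CPM).

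In WT-16, replicate 5 was high for Acta1 (50.5 CPM) and Prkg1 (34.5 CPM), and replicate 3 for Nppa (329 CPM), Nmrk2 (1.89 CPM) and Dio2 (4.60 CPM). Replicate 1 of WT-16 was high for Dbp (65.2 CPM). In WT-8, replicate 5 was low for Rcan1 (35.2 CPM) and high for Acadl (502.8 CPM) and Ryr2 (3220 CPM), and replicate 3 was high for Angptl7 (1.70 CPM).

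Tbx3 was the 1 gene of 15503 whose KO libraries lay apart from WT in opposite directions at the 2 times. It was higher in every KO-8 library (effect 0.36, adjusted p = 0.0570) and lower in every KO-16 library (effect -0.90, adjusted p = 0.0607). Neither effect passed, and how many genes would do so by chance was not tested. The difference of -1.30 did not pass the adjusted threshold in edgeR (adjusted p = 0.235).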

How the results depend on the processing

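No paired analysis was possible because the labels number the samples over the whole series and not within groups. Without any one library, calls ranged from 0 to 603 for the difference and 37 to 1857 for the 16-week effect (231 without WT-16 replicate 3, 37 to 49 without any other WT-16 library). Early and constant genes ranged from 14 to 433, growing from 16 to 160, late only from 5 to 1331 and early only from 668 to 1238. Medians of the difference ranged from 0.0905 to 2.49 for atrial markers (2.49 without WT-16 replicate 3), 0.0203 to 0.43 for smooth muscle (0.43 without that library), 0.0716 to 0.34 for heat shock, -0.45 to -0.22 for branched-chain, -0.40 to -0.22 for tricarboxylic acid and -0.28 to 0.83 for cell cycle genes (-0.28 without KO-16 replicate 2). With no filter 43 differences and 931 16-week effects passed, with 369 constant, 122 growing and 426 late only. DESeq2 gave 30, 1199, 397 constant and 707 late only. Voom weights gave 1323 at 16 weeks, 300 and 963, with 476 higher and 847 lower; plain voom gave 385, 114 higher and 271 lower, so the split by direction turned. Thinning gave 832 at 8 weeks and 622 early only. With the 18S covariate 34 passed at 16 weeks, 14 constant, 13 growing and 6 late only, and the macrophage median was 0.15. Without the male libraries 12 passed. The first file alone moved the NAD median to 0.18. Over 20% 18S (4 WT, 2 KO), 82 differences passed, and medians were -0.17 for the nuclear chain, -0.22 for NAD, 0.15 for ATF4, 2.59 for atrial, 0.40 for smooth muscle and 0.0629 for macrophage genes. With effects from all 19 libraries 31 passed at 8 and 3180 at 16 weeks, with 23 constant, 2 growing, 3155 late only and 6 early only. A gain of 0.5 gave 72 constant and 147 growing. Signs turned for the difference of A1cf (-0.78 in both voom fits, -0.11 to 6.39 without single libraries), Esr1 (-2.02 to 6.54), Mpc2 (-0.062 with 18S, -0.12 over 20% 18S, -0.0247 to 0.17) and Prkg1 (-0.0424 to 0.20). They turned for 8-week effects of Dusp4 (-0.00314 with weights, -0.0726 thinned, -0.18 with 18S, -0.00615 from all libraries, -0.18 to 0.12), Pdk4 (0.20 voom, 0.19 weights, -0.34 to 0.45), Acsl1 (0.0373 with 18S, -0.0611 to 0.0376), C1qc (-0.10 to 0.00089), Acadl (-0.0379 to 0.0131), Comp (-0.0451 to 1.18) and Angptl7 (-0.16 to 0.74). At 16 weeks they turned for Mpc2 (-0.011 with 18S, -0.0456 over 20%), Dbp (0.21 with 18S, -0.47 to 0.35) and Atf3 (0.46 over 20%, -0.49 to 0.67). Except where construction shows it (fewer libraries), the cause was not tested. Depth limits genes near 0, such as Bub1.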
